A study of Mus musculus with 12 samples.

Results

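The 8 genes described here handle arginine, nitric oxide and itaconate in macrophages: Nos2, Slc7a2, Gch1, Ass1, Asl, Arg1, Arg2 and Acod1. They were chosen by name, and their probe sets are those that the platform annotation assigns to these symbols. Of the 8, 7 had 1 probe set of their own each and were tested among 19945 genes. Ass1 stood only on 2 probe sets (10363541 and 10471154) that the annotation shares with the Ass1-like locus Gm5424, so its signal could not be given to Ass1 alone. The study measured RNA from bone marrow-derived macrophages of C57BL/6 mice, cultured in medium conditioned by L929 cells, which supply CSF1, and asked what the histone deacetylase HDAC3 does in their inflammatory response. There were 12 arrays in 4 groups of 3. HDAC3 -/- macrophages were either stimulated for 4 h at day 7 of culture with lipopolysaccharide (LPS, a ligand of TLR4 from the bacterial envelope) at 100 ng/ml, or left untreated. HDAC3 +/- macrophages, which the labels call wild type although they carry 1 Hdac3 allele, were treated in the same 2 ways. The labels used here state neither how the allele was deleted nor how old the mice were. They also do not state whether replicates were separate animals or cultures, so each p-value reflects array-to-array spread alone, which may be technical.

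Arginine enters macrophages through cationic amino acid transporters and is then used by competing enzymes. The inducible nitric oxide synthase (Nos2) turns it into nitric oxide and citrulline, with tetrahydrobiopterin as a cofactor, while the arginases split it into ornithine, the precursor of polyamines, and urea. Acod1, also written Irg1, makes itaconate from the TCA cycle intermediate cis-aconitate, and its RNA is among the strongest responses of mouse macrophages to LPS.

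The promoters of Acod1 and Gch1 are shown because both genes rose after LPS in both genotypes and both have an entry in the promoter table used. Of the 8 genes, Ass1, Gch1 and Acod1 were matched in the RefSeq promoter table (GRCm38.p6). Each sequence is the 250 bases before the annotated start, 5′ to 3′ on the gene's strand, and capitals mark matches to the searched motifs. Acod1 lies at chr14:103046762-103047011 on the plus strand and Gch1 at chr14:47189414-47189663 on the minus strand.
Acod1: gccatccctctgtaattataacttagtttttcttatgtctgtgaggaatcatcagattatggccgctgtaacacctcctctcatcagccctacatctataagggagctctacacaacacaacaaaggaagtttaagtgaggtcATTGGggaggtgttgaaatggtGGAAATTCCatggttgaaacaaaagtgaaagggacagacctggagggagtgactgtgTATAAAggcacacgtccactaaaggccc
Gch1: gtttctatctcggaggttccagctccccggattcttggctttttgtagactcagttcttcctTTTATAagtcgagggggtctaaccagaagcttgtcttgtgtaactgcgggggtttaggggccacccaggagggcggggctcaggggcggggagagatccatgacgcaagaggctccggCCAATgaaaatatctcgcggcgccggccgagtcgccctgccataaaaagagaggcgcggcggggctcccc
The 8 motifs were searched on both strands and were chosen with these sequences in view. The TATA box motif TATAAA occurred in 12.4% of 32817 promoters of the same length, and the motif CCAAT occurred in 33.8% of them. The AP-1 motif TGANTCA was found in 6.75% of promoters, the CREB motif TGACGTCA in 1.55% and the C/EBP motif TTGCNNAA in 9.57%. The short NF-kB motif GGAANTTCC was found in 0.811% of them, a longer NF-kB motif in 1.41% and the interferon response motif in 2.97%. The Acod1 promoter held TATAAA starting 28 bases before the start, GGAANTTCC at 85 and CCAAT, read on the opposite strand as ATTGG, at 107. The Gch1 promoter held CCAAT at 70 bases and TATAAA, read on the opposite strand as TTTATA, at 188. No 2 of these matches overlapped, and a match describes the letters only.

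Signals were read on a log2 scale from 28193 probe sets, and array medians lay between 5.19 and 5.37. The interquartile range ran from 3.19 to 3.80 and was narrowest in replicates 2 and 3 of HDAC3 +/- LPS (3.19 and 3.20). Precision is limited by having 3 arrays in a group. No detection call comes with these values, so whether a low signal lay above background is unknown. Hdac3 had a log2 signal of 6.91 to 7.52 in the 6 HDAC3 -/- arrays and 8.66 to 9.42 in the 6 HDAC3 +/- arrays. It was lower by 1.75 ± 0.153 after LPS in HDAC3 -/- arrays (adjusted p = 5.9e-06). The part that was deleted is not given, so whether the Hdac3 probes lie within it, and how far they check the deletion, is unknown. The 8 macrophage markers averaged 11.09 to 11.70 on every array, and the 9 lists of markers of other cell types averaged between 2.89 and 5.69, with 32 of their 43 measured markers below the array median on every array. Fewer cells of a type and less RNA per cell cannot be told apart in such samples. From Xist and Y-linked genes, 2 arrays were male, namely replicate 1 of HDAC3 +/- with and without LPS, and 10 were female. The HDAC3 +/- replicates thus did not all come from 1 animal, and whether the HDAC3 -/- replicates did is unknown. Differences are log2 values ± 1 SE from the limma model with their 95% interval, adjusted p-values are taken over all 19945 genes, and a gene is said to have risen or fallen where the adjusted p was under 0.05.

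LPS raised most of these genes in both genotypes. In HDAC3 -/- macrophages 5 of the 7 tested genes rose (Nos2, Slc7a2, Gch1, Arg2 and Acod1), against 3.69% of all genes, and in HDAC3 +/- macrophages 6 of 7 rose, Arg1 with them, against 9.59% of all genes. Their median log2 change was 1.75 in HDAC3 -/- and 2.42 in HDAC3 +/- macrophages, with 0.02 and 0.08 for all genes. Asl was called in neither. The LPS arrays lay wholly apart from the untreated arrays for 6 of the 7 genes in each genotype, Asl excepted, as they did for 28.3% of all genes in HDAC3 -/- and 36.7% in HDAC3 +/- macrophages. Cyclic loess normalization changed the share of higher genes among all genes called, which was 41.6% in HDAC3 -/- and 38.3% in HDAC3 +/- macrophages on the deposited values and 52.1% and 48.3% after it.

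**Figure D1:**
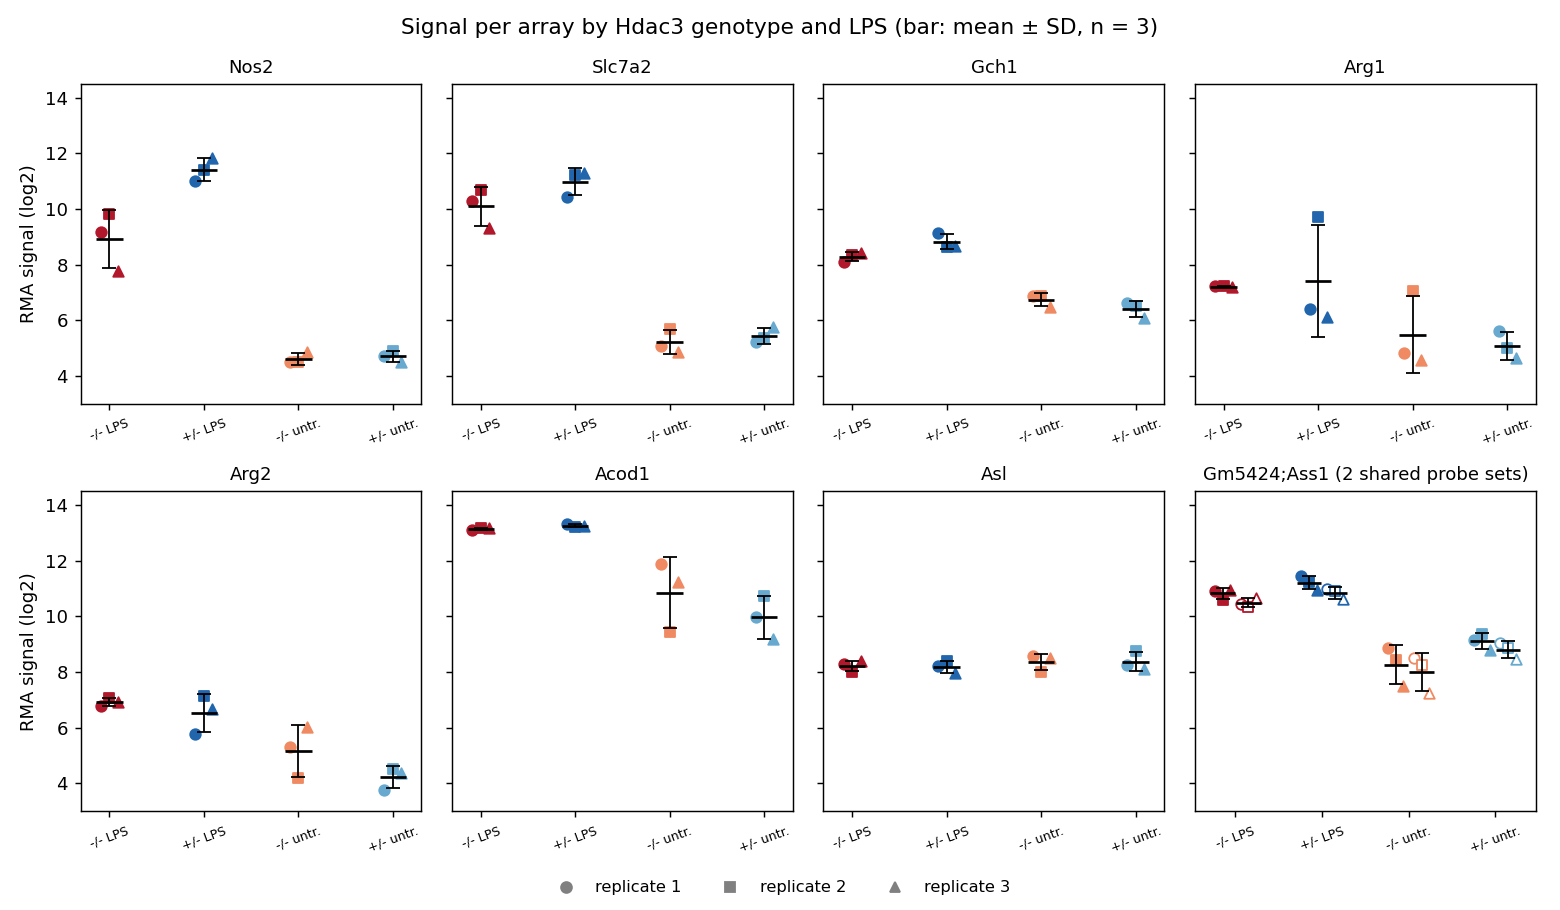
Log2 signal of Nos2, Slc7a2, Gch1, Arg1, Arg2, Acod1, Asl and the shared Gm5424 and Ass1 probe sets on each of the 12 arrays, by group, with 1 point per array, its shape giving the replicate number, and bars at the group mean ± SD (n = 3). Nos2 lies at 7.78 to 9.80 in HDAC3 -/- LPS arrays and at 10.99 to 11.83 in HDAC3 +/- LPS arrays, while all untreated arrays lie at 4.50 to 4.89.

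Nos2, which makes nitric oxide from arginine, had a log2 signal of 9.18, 9.80 and 7.78 in HDAC3 -/- LPS arrays and of 10.99, 11.39 and 11.83 in HDAC3 +/- LPS arrays. It was at 4.50, 4.50 and 4.87 in untreated HDAC3 -/- arrays, and at 4.72, 4.89 and 4.50 in untreated HDAC3 +/- arrays. The 3 levels did not overlap: HDAC3 +/- with LPS was high, HDAC3 -/- with LPS was in between, and the untreated arrays of both genotypes lay together at the bottom. Nos2 rose 19.7-fold in HDAC3 -/- macrophages (4.30 ± 0.377, 95% interval 3.49 to 5.11, adjusted p = 7.05e-06) and 104-fold in HDAC3 +/- macrophages (6.70 ± 0.377, 5.89 to 7.51, adjusted p = 5.13e-08). It ranked at place 25 of all genes by size of rise in HDAC3 -/- and at place 3 in HDAC3 +/- macrophages. Among HDAC3 -/- LPS arrays Nos2 had the largest spread of the 7 genes, with an SD of 1.03 (n = 3) that lay at percentile 99.9 of all genes in that group, and replicate 3 was the low one.

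Slc7a2, the inducible arginine transporter CAT2, also rose in both genotypes. Its log2 signal was 10.28, 10.68 and 9.32 in HDAC3 -/- LPS arrays and 10.42, 11.22 and 11.28 in HDAC3 +/- LPS arrays. Without LPS it was 5.07, 5.68 and 4.86 in HDAC3 -/- arrays and 5.20, 5.35 and 5.74 in HDAC3 +/- arrays. The LPS arrays of both genotypes overlapped, and replicate 3 of HDAC3 -/- was the lowest of them, as for Nos2. Slc7a2 rose 29.7-fold in HDAC3 -/- macrophages (4.89 ± 0.329, adjusted p = 5.35e-07) and 46.5-fold in HDAC3 +/- macrophages (5.54 ± 0.329, adjusted p = 8.49e-08), at place 14 by size of rise in both. In HDAC3 -/- macrophages its rise in fold was thus larger in value than that of Nos2, and in HDAC3 +/- macrophages smaller, a contrast that was not tested.

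Gch1, which encodes GTP cyclohydrolase 1, the first enzyme of tetrahydrobiopterin synthesis, was at 8.09, 8.33 and 8.43 in HDAC3 -/- LPS arrays and at 9.14, 8.64 and 8.68 in HDAC3 +/- LPS arrays. Without LPS its log2 signal was 6.85, 6.88 and 6.48 in HDAC3 -/- arrays and 6.61, 6.51 and 6.08 in HDAC3 +/- arrays. All LPS arrays lay above all untreated ones, and the HDAC3 -/- LPS arrays lay below the HDAC3 +/- LPS arrays without overlap. Gch1 rose 2.92-fold in HDAC3 -/- macrophages (1.55 ± 0.185, adjusted p = 0.000111) and 5.36-fold in HDAC3 +/- macrophages (2.42 ± 0.185, adjusted p = 8.09e-07).

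Ass1 and Asl encode argininosuccinate synthase and lyase, which together rebuild arginine from citrulline. Probe set 10363541, shared by Ass1 and Gm5424, was at 10.91, 10.60 and 10.96 in HDAC3 -/- LPS arrays and at 11.45, 11.25 and 10.96 in HDAC3 +/- LPS arrays. Without LPS it was at 8.87, 8.42 and 7.51 in HDAC3 -/- arrays and at 9.16, 9.37 and 8.80 in HDAC3 +/- arrays. The LPS arrays lay above all untreated ones in both genotypes. In a fit that included probe sets of several symbols, chosen after seeing the data, this probe set rose by 2.56 ± 0.278 in HDAC3 -/- (adjusted p = 6.06e-05) and by 2.11 ± 0.278 in HDAC3 +/- macrophages (adjusted p = 0.000117). The other shared probe set, 10471154, gave 2.49 and 2.05. Between genotypes the shared Ass1 probe sets differed by -0.39 and -0.36 after LPS (adjusted p = 0.386 and 0.423) and by -0.84 and -0.80 without it (adjusted p = 0.166 and 0.183). Asl kept a nearly level signal, with group means of 8.23 ± 0.19 in HDAC3 -/- LPS, 8.20 ± 0.22 in HDAC3 +/- LPS, 8.36 ± 0.30 in untreated HDAC3 -/- and 8.38 ± 0.34 in untreated HDAC3 +/- arrays (SD, n = 3 each). All 4 Asl groups overlapped, and its LPS change was -0.14 in HDAC3 -/- (95% interval -0.56 to 0.29, adjusted p = 0.801) and -0.18 in HDAC3 +/- macrophages (-0.61 to 0.25, adjusted p = 0.515).

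**Figure D2:**
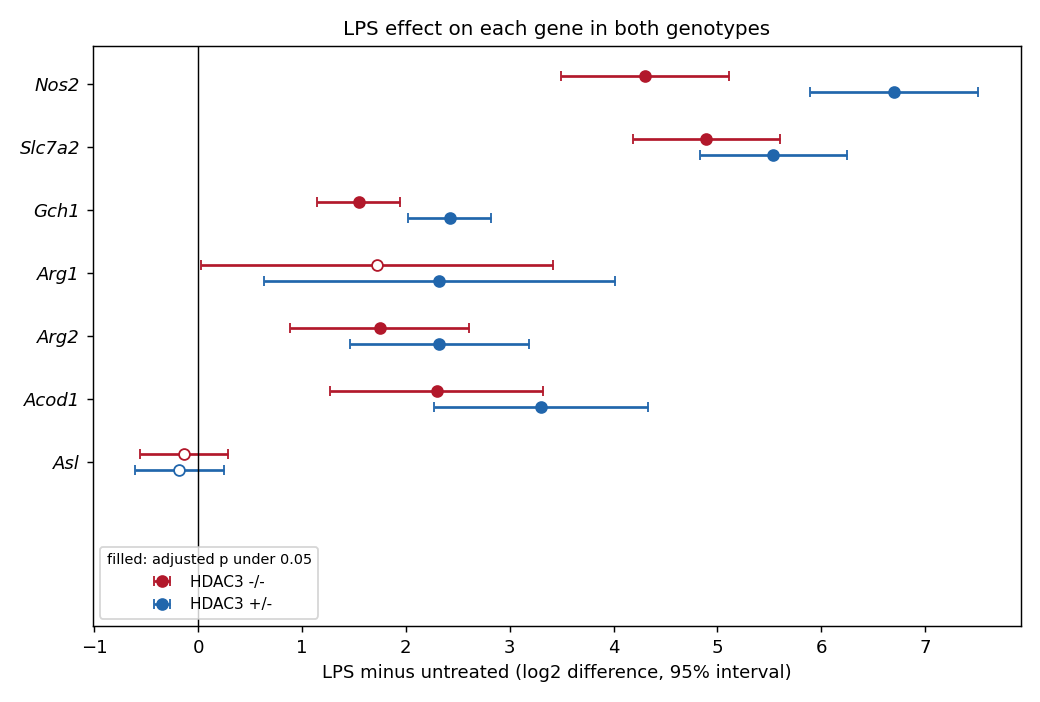
Log2 change after LPS for each tested gene in HDAC3 -/- and HDAC3 +/- macrophages, with the 95% interval of the limma model (n = 3 arrays per group) and filled points where the adjusted p was under 0.05. Nos2 and Slc7a2 have the largest changes of the 7 genes in both genotypes, and the intervals of Asl span 0.

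The arginases compete with Nos2 for arginine. Arg1, the cytosolic enzyme, had a log2 signal of 7.22, 7.22 and 7.19 in HDAC3 -/- LPS arrays and of 6.39, 9.72 and 6.10 in HDAC3 +/- LPS arrays. In untreated cells it was at 4.83, 7.06 and 4.57 in HDAC3 -/- and at 5.61, 4.99 and 4.64 in HDAC3 +/- arrays. Replicate 2 stood far above the other arrays of its group in 2 groups, HDAC3 +/- LPS and untreated HDAC3 -/-, whereas the HDAC3 -/- LPS arrays had an SD of 0.012. Of all genes' SDs, that of Arg1 lay at percentile 0.6 in HDAC3 -/- LPS arrays, 100.0 in HDAC3 +/- LPS arrays and 99.8 in untreated HDAC3 -/- arrays. The neutrophil marker S100a8 was uneven too, at 8.99, 8.51 and 10.20 in HDAC3 -/- LPS arrays and at 5.96, 9.45 and 6.40 in HDAC3 +/- LPS arrays, again with replicate 2 high in HDAC3 +/- LPS. The neutrophil markers Ngp (4.81, 5.93 and 4.79), Elane (4.27, 5.07 and 4.36) and Ltf (4.54, 5.15 and 4.58), with Camp and S100a9, were also highest on that array among the HDAC3 +/- LPS arrays. Ly6g (3.52, 3.57 and 3.66) and Mpo (4.68, 4.76 and 5.15) were highest on replicate 3. In untreated HDAC3 -/- arrays replicate 2, high in Arg1, was the lowest in S100a8 (8.2, 5.7 and 7.4) and in every other neutrophil marker except Ly6g. The part of neutrophil RNA in the Arg1 values was not tested. Arg1 changed by 1.72 ± 0.787 after LPS in HDAC3 -/- macrophages (adjusted p = 0.239) and rose by 2.32 ± 0.787 in HDAC3 +/- macrophages (adjusted p = 0.045). Without replicate 2 of HDAC3 +/- LPS the change was 1.16 in HDAC3 +/- macrophages (adjusted p = 0.169), and the same 1.72 in HDAC3 -/- macrophages then passed (adjusted p = 0.0455). In HDAC3 +/- macrophages the call on Arg1 was lost in 11 of 28 alternative settings, with adjusted p-values from 0.0155 to 0.169. Among these were the fits without replicate 1 (0.0607), 2 (0.0564) or 3 (0.0591) of HDAC3 -/- LPS, without replicate 1 of untreated HDAC3 -/- (0.0536), and without replicate 1 (0.0577), 2 (0.0807) or 3 (0.135) of untreated HDAC3 +/-.

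Arg2, the mitochondrial arginase, was at 6.78, 7.07 and 6.91 in HDAC3 -/- LPS arrays and at 5.79, 7.14 and 6.69 in HDAC3 +/- LPS arrays. Without LPS it was at 5.29, 4.19 and 6.04 in HDAC3 -/- and at 3.77, 4.51 and 4.38 in HDAC3 +/- arrays. Its LPS arrays overlapped between the genotypes, and among untreated arrays only replicate 2 of HDAC3 -/- reached into the range of HDAC3 +/-. Arg2 rose by 1.75 ± 0.401 in HDAC3 -/- (3.36-fold, adjusted p = 0.0136) and by 2.32 ± 0.401 in HDAC3 +/- macrophages (5.00-fold, adjusted p = 0.000812). Without replicate 2 of HDAC3 -/- LPS the change of Arg2 in HDAC3 -/- macrophages was 1.67, with an adjusted p of 0.0547.

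Acod1 was the brightest of the 7 genes in every group, and each gene's signal depends on its own probes, so this order is not a ranking of RNA amounts. It was at 13.12, 13.16 and 13.17 in HDAC3 -/- LPS arrays and at 13.32, 13.23 and 13.25 in HDAC3 +/- LPS arrays. Without LPS it spread over 11.88, 9.43 and 11.25 in HDAC3 -/- arrays and 9.97, 10.72 and 9.20 in HDAC3 +/- arrays. The LPS arrays thus lay tightly together near the top of the scale, and the untreated arrays were wide apart within each genotype. Acod1 rose by 2.30 ± 0.477 in HDAC3 -/- (4.92-fold, adjusted p = 0.0073) and by 3.30 ± 0.477 in HDAC3 +/- macrophages (9.86-fold, adjusted p = 0.000203). With LPS, 25 to 28 probe sets of an HDAC3 -/- array and 12 to 16 of an HDAC3 +/- array were brighter than Acod1. The highest signal of any probe set lay between 13.64 and 14.05 on all arrays, and whether Acod1 with LPS was near saturation was not tested. The SD of Acod1 stood at percentile 2.3 of all genes in HDAC3 -/- LPS arrays, 4.2 in HDAC3 +/- LPS arrays, 99.8 in untreated HDAC3 -/- arrays and 98.3 in untreated HDAC3 +/- arrays.

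The genotypes differed after LPS in Nos2. It was lower by 5.60-fold in HDAC3 -/- LPS arrays than in HDAC3 +/- LPS arrays (-2.49 ± 0.377, 95% interval -3.30 to -1.68, adjusted p = 0.000583), and it was the only one of the 7 genes called, against 5.99% of all genes called lower. The call held in all 27 alternatives, with values from -2.93 to -1.92 and adjusted p-values of 0.000147 to 0.00475. By size of change it ranked at place 89 of all genes. Gch1 differed by -0.54 ± 0.185 (-0.94 to -0.14, adjusted p = 0.0663) and Slc7a2 by -0.88 ± 0.329 (-1.59 to -0.17, adjusted p = 0.0913), and neither passed. Gch1 passed in 5 of 27 alternatives, among them the one without replicate 3 of untreated HDAC3 +/- (adjusted p = 0.0471) and cyclic loess (-0.73, adjusted p = 0.0134). Slc7a2 also passed in 5 of 27, among them those without replicate 2 of HDAC3 -/- LPS (-1.17, adjusted p = 0.0338) and without replicate 1 of HDAC3 +/- LPS (-1.16, adjusted p = 0.0351).

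For the others the difference after LPS was -0.19 for Arg1 (95% interval -1.89 to 1.50, adjusted p = 0.901), 0.38 for Arg2 (-0.48 to 1.24, adjusted p = 0.581), -0.12 for Acod1 (-1.15 to 0.91, adjusted p = 0.900) and 0.03 for Asl (-0.40 to 0.46, adjusted p = 0.939). The LPS arrays of both genotypes did not overlap for Nos2, Gch1 and Acod1, that is 3 of 7, against 31.8% of all genes. For Acod1 the SE is pooled with the wide untreated arrays. A fit to the LPS arrays alone gave the same difference of -0.12 with an SE of 0.134 (adjusted p = 0.619). Cyclic loess moved the share of higher genes among all genes called after LPS to 45.8%, against 61.8% on the deposited values, and Nos2 fell under both. Markers also moved between these groups. The 8 macrophage markers averaged 11.09 to 11.26 in HDAC3 -/- LPS arrays and 11.34 to 11.52 in HDAC3 +/- LPS arrays. Most of that gap lay in the Fc receptor gene Fcgr1, at 9.80, 8.95 and 9.48 in HDAC3 -/- LPS and 11.64, 12.01 and 11.80 in HDAC3 +/- LPS arrays. Without Fcgr1 the averages overlapped, at 11.40 to 11.46 in HDAC3 -/- LPS and 11.24 to 11.48 in HDAC3 +/- LPS arrays, and 5 of the other 7 had the higher mean in HDAC3 -/- LPS arrays.

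Of the 9 lists of other cell types, 4 had averages that lay wholly lower in HDAC3 -/- LPS arrays. Of all single genes, 31.8% did not overlap between these groups, in either direction. The 4 lists were the dendritic cell list (4.43 to 4.69 in HDAC3 -/- LPS, 4.81 to 4.91 in HDAC3 +/- LPS arrays), the B cell list (3.58 to 3.93 and 4.02 to 4.25), the fibroblast list (5.12 to 5.29 and 5.33 to 5.69) and the eosinophil list (4.38 to 4.65 and 4.81 to 5.23). In the limma fit 1 marker was called lower in each of the dendritic cell, fibroblast and eosinophil lists, and 0 in the B cell list. The largest gap in the eosinophil list was that of Ccr3, at 4.62 to 5.65 in HDAC3 -/- LPS and at 6.69 and above in HDAC3 +/- LPS arrays. Without Ccr3 the eosinophil averages overlapped, at 4.24 to 4.53 in HDAC3 -/- LPS and 4.44 to 4.67 in HDAC3 +/- LPS arrays. Still, 4 of the other 5 eosinophil markers had the lower mean in HDAC3 -/- LPS arrays. The part of these shifts in the Nos2 difference was not tested.

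Without LPS no gene of the 7 was called between genotypes in the limma fit, against 2.66% of all genes, and 1 (Arg2) had an unadjusted p under 0.05, as 12.7% of all genes had. Untreated Nos2 differed by -0.08 (95% interval -0.89 to 0.73, adjusted p = 0.967), and Slc7a2 by -0.23 (-0.94 to 0.48, adjusted p = 0.880). Gch1 differed by 0.34 (-0.06 to 0.73, adjusted p = 0.516). Arg2 was higher in value by 0.95 ± 0.401 in untreated HDAC3 -/- arrays (adjusted p = 0.321) and Acod1 by 0.89 ± 0.477 (adjusted p = 0.503). Without replicate 2 of untreated HDAC3 -/- both passed, Arg2 with 1.45 (adjusted p = 0.043) and Acod1 with 1.60 (adjusted p = 0.0178). That array was the lowest of its group in both Arg2 and Acod1, and the highest in Arg1. Arg1 differed by 0.41 (-1.29 to 2.10, adjusted p = 0.920) and Asl by -0.01 (-0.44 to 0.41, adjusted p = 0.992). The untreated arrays overlapped between genotypes in all 7 genes, while for 18.0% of all genes they did not.

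The response to LPS itself was compared between genotypes by the interaction term, the LPS change in HDAC3 -/- minus that in HDAC3 +/- macrophages. For Nos2 it was -2.40 ± 0.532 (95% interval -3.55 to -1.26, adjusted p = 0.0492), and Nos2 was the 1 gene of 7 called, against 0.777% of all genes called lower. This call lay at the threshold and was lost in 18 of 27 alternatives. Over all 27 the value lay between -2.84 and -1.83 and the adjusted p between 0.0109 and 0.129. Leaving out any 1 untreated array lost it (adjusted p 0.0682 to 0.113), as did leaving out replicate 1 of HDAC3 -/- LPS (0.0861), or replicate 2 (0.083) or 3 (0.129) of HDAC3 +/- LPS. The interaction was -0.87 ± 0.261 for Gch1 (-1.44 to -0.31, adjusted p = 0.151) and -0.65 ± 0.465 for Slc7a2 (-1.65 to 0.35, adjusted p = 0.652). For Acod1 the LPS fold in HDAC3 -/- macrophages was 0.498 of that in HDAC3 +/- macrophages (log2 interval -2.46 to 0.45, adjusted p = 0.626). Arg1 had -0.60 (adjusted p = 0.875), Arg2 -0.57 (adjusted p = 0.757) and Asl 0.05 (adjusted p = 0.969). The LPS changes, the differences after LPS and the interaction share arrays, so they are not separate evidence.

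**Figure D3:**
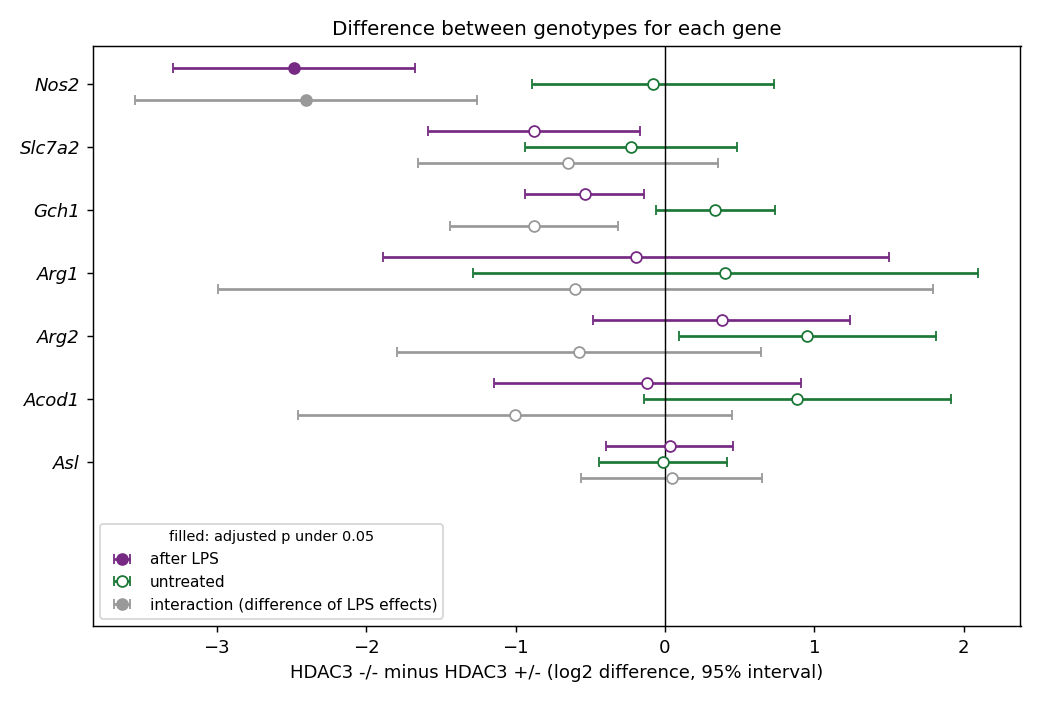
Log2 difference between genotypes, HDAC3 -/- minus HDAC3 +/-, after LPS and untreated, and the interaction, for each tested gene with its 95% interval (n = 3 arrays per group). Filled points mark an adjusted p under 0.05, which Nos2 reached after LPS (-2.49) and in the interaction (-2.40).

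The genes with the pattern most like that of each member were found by the root mean square (RMS) difference of log2 signals over the 12 arrays, each gene centred on its own mean. Nos2 was followed most closely by Ptgs2, the inducible cyclooxygenase (RMS 0.603), the interferon-induced GTPase Gbp5 (0.608) and Ifi205 (0.643), beside an SD of Nos2 itself of 3.06. Ptgs2 was at 9.65, 11.38 and 9.58 in HDAC3 -/- LPS arrays and at 12.38, 12.25 and 12.79 in HDAC3 +/- LPS arrays, so it too lay lower in HDAC3 -/- arrays without overlap. Slc7a2 was closest to Olr1, a receptor for oxidised low-density lipoprotein (0.574), the interleukin-1 receptor antagonist gene Il1rn (0.642) and the collagenase Mmp13 (0.676). Gch1 was closest to Ccdc86 (0.287), the lysosomal transporter Slc15a3 (0.299) and Rhbdf2 (0.304). Among the members, Nos2 and Slc7a2 were the closest pair (0.682), followed by Arg2 and Acod1 (0.692), whereas Arg1 and Arg2 differed by 1.22.

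Arg2 was closest to Tnip1, which binds the ubiquitin-editing enzyme A20 (0.352), to Zc3h12a, the RNase Regnase-1 (0.443), and to the pyrin gene Mefv (0.463). Acod1 was closest to the acute-phase gene Saa3 (0.422), to Procr (0.556) and to Clec4e, which encodes the receptor Mincle (0.558). Saa3 repeated the uneven untreated values of Acod1, with 11.32, 8.08 and 11.56 in HDAC3 -/- arrays and 8.99, 10.60 and 8.98 in HDAC3 +/- arrays. Arg1 had no close companion beside its SD of 1.50: Msantd3 stood at 0.716, Hilpda, a lipid droplet protein gene, at 0.724 and Rai14 at 0.725. Each of these genes was highest on replicate 2 in both groups where Arg1 was. Hilpda, for example, was at 5.69, 8.57 and 6.95 in HDAC3 +/- LPS and at 5.56, 6.45 and 5.35 in untreated HDAC3 -/- arrays. All of these are descriptions of the same 12 arrays. Genes chosen for likeness to a member share much of its pattern by that choice.

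**Figure D4:**
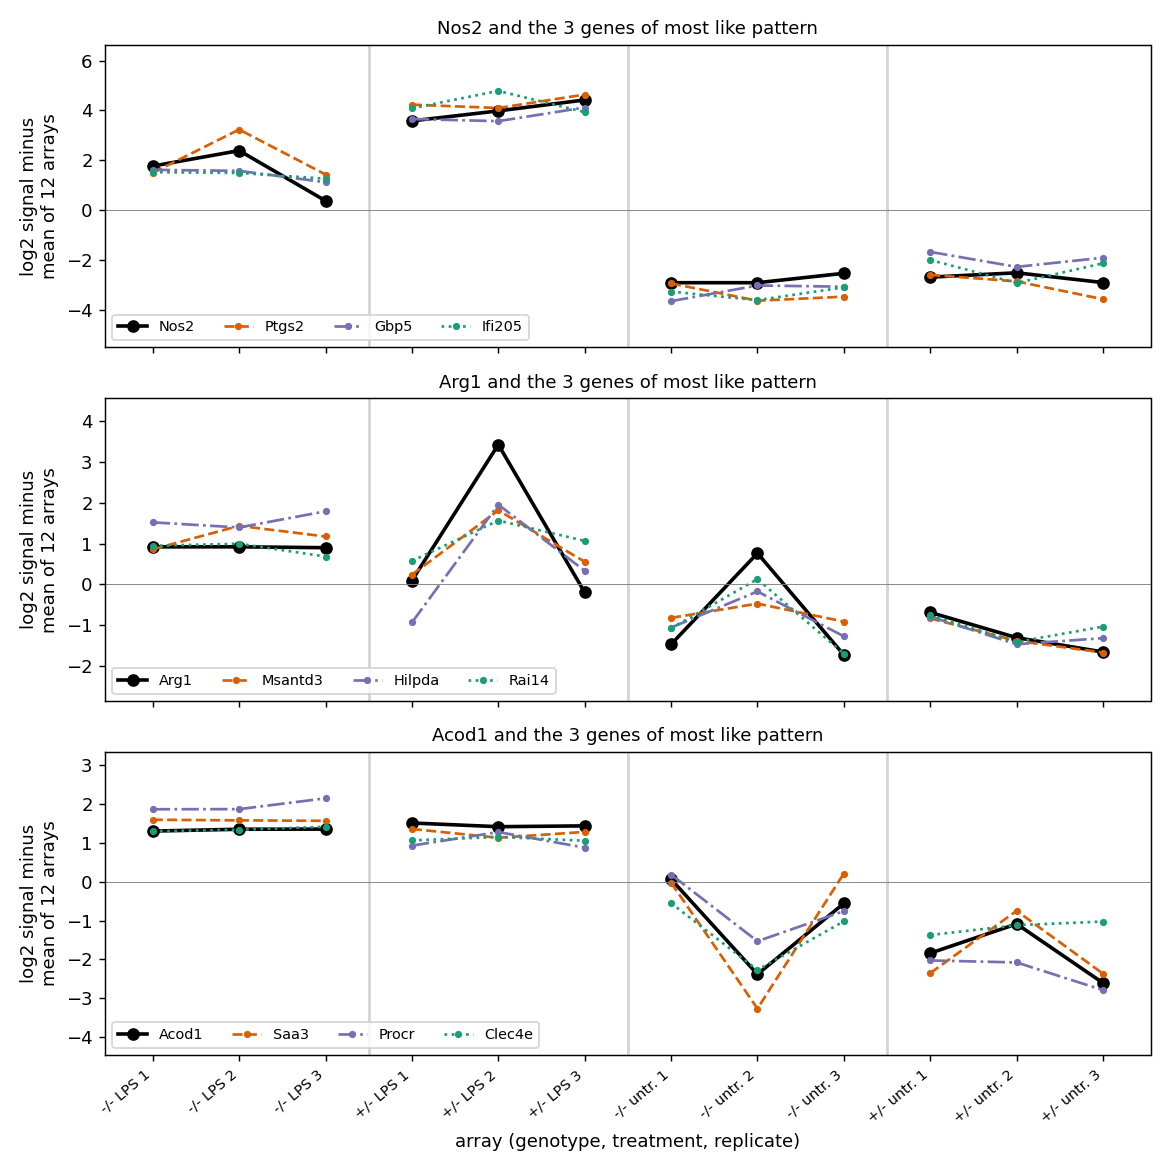
Log2 signal minus the gene's mean over 12 arrays, for Nos2, Arg1 and Acod1 (black) and the 3 genes of most like pattern (coloured), on each array by group. Nos2, Ptgs2, Gbp5 and Ifi205 are lower in all HDAC3 -/- LPS arrays than in any HDAC3 +/- LPS array, and Arg1, Msantd3, Hilpda and Rai14 are highest in replicate 2 of HDAC3 +/- LPS.

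The genes around the members were read from 5 lists. Of 7 measured polyamine genes, LPS raised 1 and lowered 1 in HDAC3 -/- macrophages, where 3.69% of all genes rose and 5.18% fell. It raised 2 and lowered 0 in HDAC3 +/- macrophages, where 9.59% of all genes rose and 15.5% fell. Odc1, ornithine decarboxylase, which uses the ornithine made by arginase, had a log2 signal of 11.66, 11.32 and 11.66 in HDAC3 -/- LPS arrays and 11.27, 11.78 and 11.22 in HDAC3 +/- LPS arrays. Untreated it was at 8.63, 9.26 and 7.48 in HDAC3 -/- arrays and at 9.46, 7.50 and 7.74 in HDAC3 +/- arrays. All LPS arrays lay above all untreated ones. Odc1 rose by 3.09 ± 0.465 in HDAC3 -/- (8.52-fold, adjusted p = 0.000719) and 3.19 ± 0.465 in HDAC3 +/- macrophages (9.11-fold, adjusted p = 0.000218), and after LPS they differed by 0.13 (95% interval -0.88 to 1.13, adjusted p = 0.892). Sat1, which acetylates spermidine and spermine, fell by 0.84 in HDAC3 -/- macrophages (adjusted p = 0.0255). The count of fallen genes was 0 without replicate 1 or 3 of HDAC3 -/- LPS or replicate 3 of untreated HDAC3 -/-.

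Smox, spermine oxidase, rose by 1.45 ± 0.218 in HDAC3 +/- macrophages (2.72-fold, adjusted p = 0.000284) and changed by 0.12 in HDAC3 -/- macrophages (adjusted p = 0.854). It was at 8.36, 7.79 and 8.48 in HDAC3 -/- LPS arrays, against 9.40, 10.20 and 9.44 in HDAC3 +/- LPS arrays, a gap of -1.47 ± 0.218 (adjusted p = 0.000479). The interaction of Smox, -1.33 ± 0.308, did not pass (adjusted p = 0.0594), and in 6 of the alternatives 1 gene of the list was called lower in the interaction. After LPS, Srm, spermidine synthase, was higher in HDAC3 -/- arrays, with 9.17, 8.67 and 9.58, against 8.01, 7.80 and 7.12 in HDAC3 +/- arrays (1.50 ± 0.358, adjusted p = 0.012), and Sat1 was lower by 0.69 (adjusted p = 0.0437). That makes 1 polyamine gene higher and 2 lower in HDAC3 -/- LPS arrays, against 9.69% and 5.99% of all genes. Without replicate 3 of HDAC3 -/- LPS or of HDAC3 +/- LPS, 0 polyamine genes were called higher and 1 lower in HDAC3 -/-. No polyamine gene was called without LPS, with 1 at an unadjusted p under 0.05, as 12.7% of all genes had.

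Of 16 measured genes of arginine supply and breakdown, LPS raised Slc3a2, the heavy chain shared by several amino acid transporters, in HDAC3 -/- macrophages (0.72 ± 0.203, adjusted p = 0.0404), 1 of 16 against 3.69% of all genes. The count became 0 without any 1 of the HDAC3 -/- LPS arrays, without replicate 1 or 3 of untreated HDAC3 -/-, and without replicate 3 of HDAC3 +/- LPS or of untreated HDAC3 +/-. In HDAC3 +/- macrophages 1 rose (Cps1, 0.40) and 5 fell: the transporter gene Slc7a6 (-0.91), the ornithine carrier Slc25a15 (-0.76), Aldh4a1 (-0.75), Gamt (-0.66) and the ornithine aminotransferase Oat (-0.60), against 9.59% of all genes called higher and 15.5% called lower. Cps1 was dim, at 4.48, 4.46 and 4.69 in HDAC3 +/- LPS and 4.09, 4.11 and 4.23 in untreated HDAC3 +/- arrays. These signals lay under the array medians. The 1 that rose was not called without replicate 3 of HDAC3 +/- LPS or replicate 1 of untreated HDAC3 +/-, where the count was 0. After LPS, Slc7a6 and Slc25a15 were higher in HDAC3 -/- arrays by 0.73 and 0.70 (adjusted p = 0.0305 and 0.00145). The arginine exchanger Slc7a7 was lower by 1.10 ± 0.298 (adjusted p = 0.0226), with 7.60, 8.35 and 7.82 in HDAC3 -/- LPS arrays and 8.95, 9.14 and 8.98 in HDAC3 +/- LPS arrays. The 2 higher and 1 lower of 16 stood against 9.69% and 5.99% of all genes. The count of higher genes was 1 without replicate 2 or 3 of HDAC3 -/- LPS or of HDAC3 +/- LPS, and 6 without replicate 1 of HDAC3 +/- LPS. The count of lower genes was 0 without replicate 1 or 3 of HDAC3 -/- LPS, and without replicate 2 or 3 of HDAC3 +/- LPS. In this list 0 genes were called untreated and 0 in the interaction by limma, with 1 and 2 at an unadjusted p under 0.05, against 12.7% and 11.4% of all genes.

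Among the measured genes of tetrahydrobiopterin synthesis and recycling, Gch1 was the only one whose LPS change was called, in both genotypes. Of the 6 others measured, 0 were called in the limma fit in any of the 5 comparisons, and at an unadjusted p under 0.05 there was 1 in each LPS comparison, 1 between genotypes after LPS and 0 in the others. Of all genes 20.1% were at that p for LPS in HDAC3 -/-, 38.3% for LPS in HDAC3 +/- and 28.9% between genotypes after LPS. Pts, which acts after Gch1, changed by -0.54 after LPS in HDAC3 -/- macrophages (adjusted p = 0.181), and Spr, sepiapterin reductase, by -0.48 in HDAC3 +/- macrophages (adjusted p = 0.0812). Of the 8 other nitric oxide synthases and partners, LPS lowered 1 in HDAC3 +/- macrophages, against 15.5% of all genes called lower. Between genotypes after LPS 1 was higher in HDAC3 -/- arrays, against 9.69% of all genes called higher, so both counts were near those shares. Nosip, a gene for a protein that binds nitric oxide synthases, fell by 0.52 in HDAC3 +/- macrophages (adjusted p = 0.0318). After LPS it was higher by 0.72 in HDAC3 -/- arrays (adjusted p = 0.00872), with 7.29, 7.14 and 7.61 against 6.53, 6.60 and 6.74 in HDAC3 +/- arrays. The first count became 0 without replicate 2 of HDAC3 +/- LPS or replicate 1 or 3 of untreated HDAC3 +/-, and the second became 0 without replicate 3 of HDAC3 -/- LPS.

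Itaconate is drawn from the TCA cycle, and of 24 measured genes of that cycle and its neighbours LPS lowered 2 in HDAC3 -/- and 15 in HDAC3 +/- macrophages, against 5.18% and 15.5% of all genes called lower, and raised none in either. Their median was -0.26 in HDAC3 -/- and -0.51 in HDAC3 +/- macrophages. All of them were among the brighter genes. With the genes under the median in mean signal left out, the median change of the rest was -0.08 in HDAC3 -/- and -0.21 in HDAC3 +/- macrophages. That setting tested far fewer genes, only the brighter ones, and called 1166 and 3042 of them lower. Over all 19945 genes the counts were 1033 and 3085. The shares of 5.18% and 15.5% are thus smaller than those of bright genes. In that setting 3 and 15 of the 24 were called lower. Whether the counts of the list exceed the shares among bright genes was not tested. Idh1, the cytosolic isocitrate dehydrogenase, was at 10.00, 9.91 and 10.17 in HDAC3 -/- LPS and 10.15, 10.35 and 10.06 in HDAC3 +/- LPS arrays, and fell by 1.38 ± 0.333 in HDAC3 -/- (adjusted p = 0.0178) and 1.35 ± 0.333 in HDAC3 +/- macrophages (adjusted p = 0.0088). The dicarboxylate carrier Slc25a10 also fell in HDAC3 -/- macrophages (-0.65). In HDAC3 +/- macrophages the largest changes after that of Idh1 were those of Aco1 (-0.93), Idh2 (-0.81) and the fumarase gene Fh1 (-0.78). After LPS, 7 of the 24 were higher in HDAC3 -/- arrays (Idh2 by 0.84, Mdh2 by 0.65, Slc25a11 by 0.64 and Idh3b by 0.61, with Cs, Dlst and Sdhb), against 9.69% of all genes called higher. With dim genes left out, 2025 of the fewer genes tested were called higher in this comparison, against 1932 of all 19945. The share of 9.69% is thus also smaller than that of bright genes. In that setting 9 of the 24 were called higher. The median difference was then 0.15, beside 0.32 for the 24. Not one of the 24 was called untreated or in the interaction by limma. At an unadjusted p under 0.05 there were 2 and 1 of 24, against 12.7% and 11.4% of all genes. The difference between the counts of the genotypes was not itself tested.

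These TCA counts moved with single arrays and settings. In HDAC3 -/- macrophages the 2 became 0 without replicate 1 of LPS and without replicate 1 or 3 of untreated, and 12 with array weights. In HDAC3 +/- macrophages the 15 became 8 after cyclic loess and without replicate 3 of LPS. The 7 higher after LPS became 0 without replicate 3 of HDAC3 -/- LPS or of HDAC3 +/- LPS, 1 without replicate 2 of HDAC3 +/- LPS, 3 without replicate 1 of HDAC3 -/- LPS and 2 after cyclic loess.

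**Figure D5:**
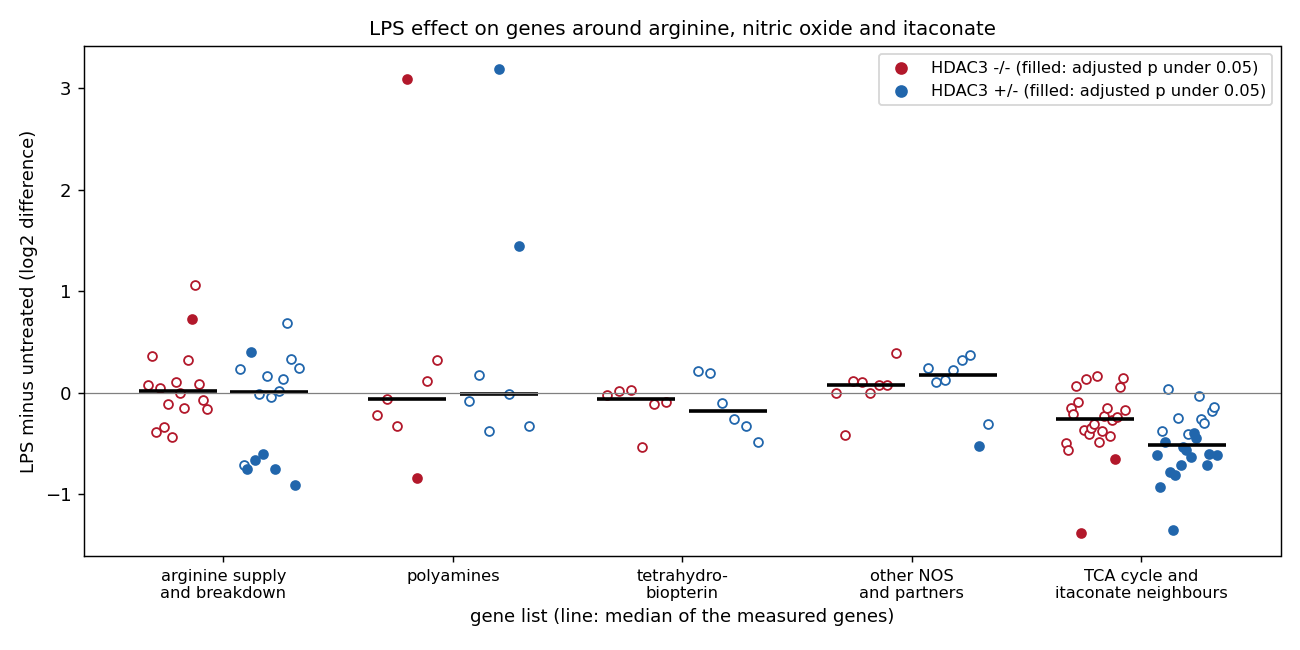
Log2 change after LPS of each measured gene in the 5 lists around the members, in HDAC3 -/- and HDAC3 +/- macrophages, with 1 point per gene, filled where the adjusted p was under 0.05, and a line at each list's median. Odc1 stands at 3.09 and 3.19, and the TCA cycle list has a median of -0.26 in HDAC3 -/- and -0.51 in HDAC3 +/- macrophages.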

How the data were processed

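The authors deposited 1 log2 value per probe set and array, summarised by RMA with affy according to the submitters' processing notes. Software versions, the chip description file and the build: not given in the sources used here. RNA was taken with RNeasy and DNase I and labelled with the Ambion WT Expression and Affymetrix WT terminal labelling kits, per the labels' protocols. No array was left out, and no 2 arrays held identical values. Of 28193 probe sets, 21648 had 1 symbol in the platform annotation and were used, 1313 had several and 5232 had none. Where several probe sets shared a gene (954 genes), the brightest on average stood for it.

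A linear model with 4 group means was fitted to all 12 arrays with limma 3.58.1 in R 4.3.3 (lmFit and eBayes, no trend), with Benjamini-Hochberg adjustment over 19945 genes. Tables and figures used Python 3.11.15, pandas 2.3.3, numpy 2.4.6 and matplotlib 3.10.9. The fit was tested on simulated data with independent noise and changes planted in HDAC3 -/- LPS alone. Array effects and pairing were not simulated, so that test does not check the fit for them. The members, lists and tests were chosen with earlier results of these data known. Named genes were all 8 members, Hdac3, up to 4 called genes per list and comparison by size of change (the 2 of smallest p where none was called), and the 3 genes of most like pattern for each called member. Ptgs2, Saa3 and Hilpda values per array, the further genes that complete a count, Odc1 after LPS, the single markers named, and the marker averages without Fcgr1 or Ccr3 were chosen after their values were seen. Some listed genes were not analysed here.

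The replicate numbers were checked as a pairing from the deviations of arrays from their group means. The LPS and untreated arrays of a number correlated across genes at 0.243, 0.327 and 0.223 in HDAC3 +/-, where the numbers were taken to pair the arrays, and at 0.09, 0.195 and -0.122 in HDAC3 -/-, where they were not. Alternatives were other normalizations, probe set choices, a filter on dim genes, eBayes settings, array weights, replicate blocks, sex, fewer groups, and each array left out. The filter and choice of probe set can change the number of genes adjusted over and so the adjusted p, whereas normalization changes the values over the same genes.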

Additional observations from a re-analysis of the deposited data

Results flagged for a closer look

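The LPS response of Nos2 differed between the genotypes by a test of the difference itself, the interaction term of the limma model. The LPS change was 4.30 in HDAC3 -/- and 6.70 in HDAC3 +/- macrophages, a difference of -2.40 on the log2 scale (adjusted p = 0.0492). The call was lost in 18 of 27 alternatives, with adjusted p-values from 0.0109 to 0.129. It was lost without any 1 of the untreated arrays, and under quantile or cyclic loess normalization, a trend, robust eBayes and sex as a covariate.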

How the results depend on the processing

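With array weights 4424 genes were called for the LPS change in HDAC3 -/- macrophages (1769 as reported), 1186 for the untreated genotype difference (531) and 592 for the interaction (216). With only the groups compared the untreated count was 321, and with the replicate block as a random effect the interaction count was 347. Leaving out 1 array gave 1129 to 1941 genes for LPS in HDAC3 -/-, 1685 to 3495 between genotypes after LPS (3127), 266 to 606 untreated and 97 to 349 for the interaction. Of the 7 members, 1 was called between genotypes after LPS as reported, 2 after quantile or cyclic loess normalization, with dim genes left out, with sex as a covariate or without both male arrays (chosen after seeing the data), 3 with array weights, and 1 to 2 with an array left out. Untreated it was 0, and 0 to 2 with an array left out. For the interaction it was 1, and 0 with every probe set tested, after quantile or cyclic loess normalization, with a trend, with robust eBayes, with the replicate block over all groups, with sex, without male arrays and with probe sets of several symbols, and 0 to 1 with an array left out. The replicate block within genotype kept the Nos2 interaction at -2.40 and its call, and changed no other member's call. That block paired the arrays of both genotypes, although the numbers were taken as pairs in HDAC3 +/- alone. A fit that paired only the HDAC3 +/- arrays was not run, and the fit as reported used no pairing.

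None of the values that changed sign was called. Asl changed by 0.058 after LPS in HDAC3 +/- under cyclic loess, and by -0.31 to 0.012 with an array left out. Its genotype difference after LPS was -0.015 (quantile), -0.15 (cyclic loess) and -0.080 to 0.14, untreated 0.0001 (quantile), 0.14 (array weights) and -0.14 to 0.18, and in the interaction -0.015 (quantile), -0.091 (cyclic loess), -0.01 (array weights) and -0.15 to 0.17. Arg1 with array weights had 0.23 after LPS, -0.061 untreated and 0.29 in the interaction, and with an array left out -0.85 to 0.96, -0.38 to 0.86 and -1.25 to 0.56. Untreated Nos2 ran from -0.21 to 0.011 with an array left out. The cause of these changes was not tested. Members called for the LPS change numbered 4 to 6 in HDAC3 -/- and 5 to 6 in HDAC3 +/- with an array left out. With 3 arrays a group, the intervals of Arg1 and Acod1 are wide.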
